A study of Vuilleminia comedens with 3 samples.

Results

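Transcripts named for quinone reduction and for oxygenases that open aromatic rings were described in the wood-decay fungus Vuilleminia comedens. A transcript was a member when the text of its best database match held any of 13 words or phrases, such as quinone oxidoreductase, dioxygenase, homogentisate, salicylate or benzoate, and did not hold NADH-ubiquinone. The rule found 66 transcripts of 42 assembler genes among 22605 transcripts with a match and 81106 transcripts in all. It used names alone and no measured level. The phrase NADH-ubiquinone removed 12 transcripts, and 8 of the 13 words, among them quinone reductase, intradiol, catechol, vanill, muconate and epoxide hydrolase, picked 0 transcripts. Names were carried over from matched entries of other fungi, and no enzyme activity was measured.

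The data came from 1 group, the self-pairing of strain VcWVJH1. Autoclaved beech blocks of 2 cm3 carried the same strain for about 8 weeks at 20 °C. They were then set face to face in pairs for 7 days. Malt extract is listed at 0.5% for every sample, and a band was removed on day 3. Poly(A) RNA from the facing parts of the blocks was sequenced in 3 libraries, 1 for each replicate. All libraries share the strain, wood, malt extract level, temperature, pairing and day of band removal. There was no unpaired, other-strain or other-substrate control, so the values describe levels and their spread and no condition was compared. Any effect of the malt extract on these levels was not tested. The count columns carried no sample names and are called libraries A, B and C.

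Lignin is a polymer of methoxylated aromatic rings, and its breakdown by white-rot fungi releases phenols that are readily oxidised to quinones. Quinone reductases inside the hypha turn quinones into hydroquinones, which are less prone to react with proteins and can be passed on to ring-opening enzymes. Many ring-opening dioxygenases insert both atoms of oxygen into a ring that already carries hydroxyl groups. Products of ring opening can feed central carbon metabolism. Separate routes open the rings of tyrosine, through homogentisate, and of tryptophan, through kynurenine.

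Checked against the names, the label covered part of the list. Quinone reductases, aromatic compound dioxygenases, homogentisate dioxygenase, the tryptophan and kynurenine enzymes and a salicylate hydroxylase made up 25 of the 66 transcripts. The other 41 also held a word of the rule but had names outside these roles. They were 31 dioxygenases with other names and 10 4-hydroxybenzoate polyprenyl transferases, the enzymes that attach the side chain in ubiquinone synthesis. The 25 transcripts summed to 358 RPKM ± 50.8 (SD, n = 3 libraries) and the 41 to 201 ± 8.00 (SD, n = 3). RPKM is reads per kilobase of transcript per 1000000 counted reads, so these sums are levels per length.

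Members took few reads. Their counts were 86952 of 111754018 in library A, or 0.0778% (exact 95% binomial interval 0.0773 to 0.0783), 69429 of 68151997 in library B, or 0.102% (0.101 to 0.103), and 63712 of 64236917 in library C, or 0.0992% (0.0984 to 0.09996). Most of each total fell on 2 transcripts, and the shares above and every RPKM include them. Outside those 2 there were 33450738 reads in A, 22487890 in B and 19747416 in C. Of these reads, members held 0.260% in A, 0.309% in B and 0.323% in C. The members' sum was 494 RPKM in A, 591 in B and 593 in C, with A below the other libraries, and its mean was 559 ± 56.8 (SD, n = 3). In these bulk samples fewer fungal cells of a kind and less RNA per cell cannot be told apart. The sum was concentrated, with the most abundant transcript holding 23.2% of the mean RPKM and the 10 most abundant 65.9%.

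By role, aromatic compound dioxygenases summed to 169 RPKM ± 47.4 (SD, n = 3; 7 transcripts) and quinone reductases to 129 ± 12.5 (SD, n = 3; 4 transcripts). Dioxygenases that use 2-oxoglutarate, the common co-substrate of many iron enzymes, followed at 74.4 ± 5.87 (SD, n = 3; 10 transcripts), then 2-nitropropane dioxygenases at 65.0 ± 13.6 (SD, n = 3; 17 transcripts). Lower were the remaining dioxygenases at 41.4 ± 5.08, tryptophan and kynurenine dioxygenases at 33.6 ± 1.90, homogentisate dioxygenase at 26.5 ± 4.21 and prenyl transferases at 20.3 ± 3.85 (SD, n = 3 each). Several neighbours in this order did not differ beyond their spread. The 2-oxoglutarate and 2-nitropropane groups changed places in library B, and prenyl transferases lay above homogentisate dioxygenase in library C, at 23.0 and 21.9 RPKM. In library A quinone reductases lay above aromatic compound dioxygenases, at 122 and 114 RPKM, but at 101 RPKM without the NADH-quinone oxidoreductase transcript.

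**Figure D1:**
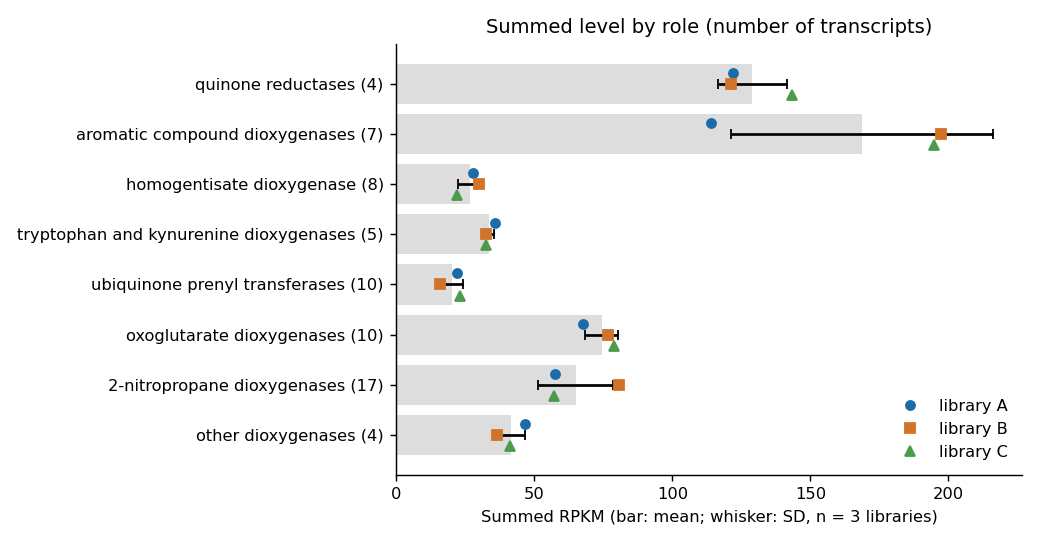
Summed RPKM per role, with the number of transcripts in brackets on the vertical axis. Bars are means, whiskers SD over 3 libraries, and points the libraries. Library A sits at 114 for the aromatic compound dioxygenases, against 197 in B and 195 in C, while quinone reductases lie between 121 and 143. The salicylate hydroxylase, with a mean of 0.133 RPKM, is not drawn.

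By name, quinone reduction was represented mainly by a single assembler gene matched to NADH:quinone oxidoreductase PUNSTDRAFT_120592 of Punctularia strigosozonata, a relative in the same order. Its transcript TRINITY_DN24606_c0_g1_i1 (922 bp) had 58.3 RPKM in library A, 55.9 in B and 69.7 in C. The second isoform, TRINITY_DN24606_c0_g1_i2 (1011 bp), had 42.2 RPKM in A, 38.7 in B and 54.6 in C. Both were highest in library C and lowest in B, and together they summed to 106 RPKM ± 15.7 (SD, n = 3). Among 11218 annotated transcripts of at least 300 bp and 100 reads, their mean levels ranked 451 and 645.

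TRINITY_DN24591_c0_g1_i1 (2447 bp) matched NADH-quinone oxidoreductase PUNSTDRAFT_59413 and had 21.4 RPKM in library A, 26.6 in B and 19.1 in C. The name with a hyphen is used for bacterial respiratory complex I, the proton-pumping entry of the electron transport chain. The name alone therefore does not place this transcript in the reduction of lignin-derived quinones. A name with a colon does not by itself place the NADH:quinone oxidoreductase gene there either. Of the complex I transcripts that the rule left out, the highest, named for a 12 kDa subunit and matched to the white-rot polypore Trametes versicolor, had 54.9 ± 8.30 RPKM (SD, n = 3). The NADH:quinone oxidoreductase gene exceeded the NADH-quinone oxidoreductase transcript by 4.71-fold in A, 3.56-fold in B and 6.52-fold in C. The fourth quinone-named transcript, TRINITY_DN37877_c0_g1_i1, was a 205 bp fragment matched to T. versicolor with 7, 2 and 2 reads in libraries A, B and C.

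Aromatic compound dioxygenase is the family name of the intradiol enzymes, which open a ring between neighbouring hydroxyl groups. The most abundant member of all was TRINITY_DN24145_c0_g1_i1 (2854 bp), matched to PUNSTDRAFT_101176, with 26753 reads in library A, 29528 in B and 28150 in C. In RPKM it had 83.9 in A, 152 in B and 154 in C, a mean of 130 ± 39.7 (SD, n = 3). Library A was the low one, at a 1.83-fold distance in CPM from the highest, and B and C lay close together. It ranked 199 of the 11218 annotated transcripts and took 30.8% of the members' reads in A, 42.5% in B and 44.2% in C.

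The next gene of the family, matched to PUNSTDRAFT_103415, was read as 2 isoforms. TRINITY_DN27645_c1_g1_i2 had 19.7 RPKM in library A, 32.5 in B and 30.6 in C. TRINITY_DN27645_c1_g1_i1 had 7.15 RPKM in A, 9.59 in B and 7.71 in C. Again both were lowest in A, and their sum was 35.8 RPKM ± 7.93 (SD, n = 3). Another gene of the family, matched to PUNSTDRAFT_132654, summed to 2.97 RPKM ± 0.0857 (SD, n = 3) over the 2 isoforms with a match. This sum was nearly level, with 2.92 in A, 3.06 in B and 2.91 in C. It left out an isoform without a match, TRINITY_DN28708_c0_g2_i2, at 1.59 ± 0.204 RPKM (SD, n = 3). The PUNSTDRAFT_101176 gene stood 3.12-fold above PUNSTDRAFT_103415 in A, 3.60-fold in B and 4.01-fold in C. Over isoforms with a match, the PUNSTDRAFT_103415 gene in turn stood 9.21-fold above PUNSTDRAFT_132654 in A, 13.7-fold in B and 13.2-fold in C. The assembler put the PUNSTDRAFT_132654 gene in the same component as a putative laccase 2 transcript, TRINITY_DN28708_c0_g3_i4, at 1.53 ± 0.0951 RPKM (SD, n = 3), which was singled out after its values were seen. It is 1 of 6 isoforms of its gene, and the other 5 matched hypothetical proteins of P. strigosozonata. The 2 remaining family transcripts were fragments under 500 bp matched to T. versicolor, with 8 and 7 reads in total.

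Quinone reductases and aromatic compound dioxygenases were set against each other within each library. The ratio of summed RPKM was 1.07 in library A, 0.616 in B and 0.737 in C, so it was above 1 in A only. The mean log2 ratio was -0.35 ± 0.41 (SD, n = 3), with p = 0.5 in a two-sided exact sign-flip permutation test, for which 0.25 is the smallest p that 3 libraries allow. The ratio in A depended on the NADH-quinone oxidoreductase transcript, whose name is also that of complex I. Without it the ratios were 0.885 in A, 0.481 in B and 0.639 in C, and the mean log2 ratio was -0.63 ± 0.44 (exact sign-flip p = 0.25, n = 3). With reads not divided by length the ratios were 0.543, 0.321 and 0.342 in A, B and C, with a mean log2 of -1.36 ± 0.41 (exact sign-flip p = 0.25, n = 3). Without the aromatic compound dioxygenase TRINITY_DN24145_c0_g1_i1 the mean log2 ratio was 1.75 ± 0.31 (exact sign-flip p = 0.25, n = 3). Both removals were chosen after seeing the data.

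**Figure D2:**
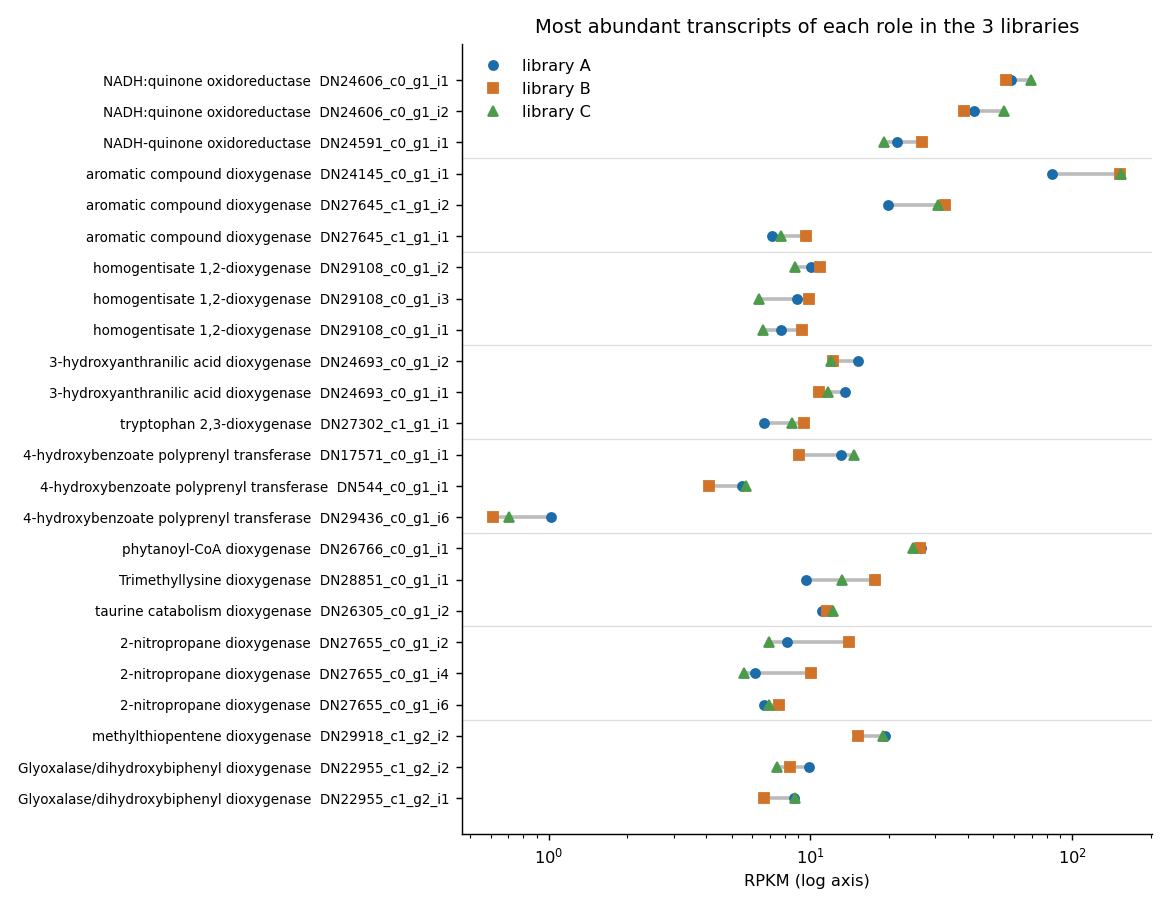
RPKM on a log axis for the most abundant transcripts of each role, up to 3 per role, in libraries A, B and C. Grey lines join the lowest and highest library. The aromatic compound dioxygenase at the top of its role spans 83.9 to 154 RPKM, while the phytanoyl-CoA dioxygenase spans 24.7 to 26.4.

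Homogentisate 1,2-dioxygenase opens the ring of homogentisate, the central intermediate of phenylalanine and tyrosine breakdown. A single assembler gene matched to PUNSTDRAFT_62712 held 3 isoforms of 3592 to 3826 bp and had 26.6 RPKM in library A, 30.01 in B and 21.7 in C. Its mean was 26.1 ± 4.18 (SD, n = 3), and all 3 isoforms were highest in B and lowest in C. TRINITY_DN29108_c0_g1_i2 was the highest, at 9.86 ± 1.07 RPKM, followed by TRINITY_DN29108_c0_g1_i3 at 8.38 ± 1.80 and TRINITY_DN29108_c0_g1_i1 at 7.87 ± 1.36 (SD, n = 3 each). These isoforms did not differ from their neighbours beyond the spread. The other 5 homogentisate transcripts matched T. versicolor, were 203 to 512 bp long and had 32 reads in A, 2 in B and 5 in C in total. The word fumarylacetoacetate, for the last enzyme of the same route, picked 0 transcripts. That does not show absence of the enzyme, since an entry can carry another name, as with the word intradiol.

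The tryptophan route begins with tryptophan 2,3-dioxygenase or indoleamine 2,3-dioxygenase, both of which open the indole ring, and 3-hydroxyanthranilate dioxygenase later opens the remaining benzene ring. 3-hydroxyanthranilic acid dioxygenase, matched to PUNSTDRAFT_75861, had 28.7 RPKM in library A, 23.0 in B and 23.7 in C over 2 isoforms. Tryptophan 2,3-dioxygenase, TRINITY_DN27302_c1_g1_i1, had 6.64 RPKM in A, 9.41 in B and 8.47 in C. The 3-hydroxyanthranilate enzyme had the higher level in every library, by 4.33-fold in A, 2.44-fold in B and 2.79-fold in C. Indoleamine 2,3-dioxygenase was read as 2 partial transcripts with 41 reads in A, 6 in B and 22 in C, or 0.317 RPKM ± 0.194 (SD, n = 3). Salicylate hydroxylase, which turns salicylate into catechol, was a single 399 bp transcript with 8 reads in A, 6 in B and 0 in C, where 3 counts would be 0.0467 CPM.

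The 10 4-hydroxybenzoate polyprenyl transferase transcripts fell into 4 matched entries of very different level. TRINITY_DN17571_c0_g1_i1 had 13.0 RPKM in library A, 9.002 in B and 14.7 in C. TRINITY_DN544_c0_g1_i1, matched to Moniliophthora roreri, had 5.48 in A, 4.10 in B and 5.66 in C. Both were lowest in B. The 4 isoforms of a gene that matched PUNSTDRAFT_100203 summed to 2.57 RPKM ± 0.299 (SD, n = 3). The highest of them, TRINITY_DN29436_c0_g1_i6, had 0.781 ± 0.211 (SD, n = 3). Isoforms of this gene without a match, TRINITY_DN29436_c0_g1_i2 and TRINITY_DN29436_c0_g1_i5, had means of 0.681 and 0.0491 RPKM and were left out.

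Among the dioxygenases that use 2-oxoglutarate, phytanoyl-CoA dioxygenase takes part in the alpha-oxidation of branched fatty acids in animals. Its transcript had the smallest range between libraries of the 47 members with at least 10 reads in each. TRINITY_DN26766_c0_g1_i1 had 26.4 RPKM in library A, 26.2 in B and 24.7 in C, a 1.07-fold range. Taurine catabolism dioxygenase, of a family that releases sulfite from sulfonates, was a gene of 3 isoforms at 25.7 RPKM ± 1.72 (SD, n = 3), led by TRINITY_DN26305_c0_g1_i2 at 11.6 ± 0.565. Trimethyllysine dioxygenase, the first enzyme of carnitine synthesis, had 9.63 RPKM in A, 17.6 in B and 13.2 in C in TRINITY_DN28851_c0_g1_i1, so B was 1.83-fold above A. TRINITY_DN25663_c0_g1_i1, alpha-ketoglutarate-dependent taurine dioxygenase, had 4.89 RPKM in A, 5.74 in B and 10.1 in C. TRINITY_DN23712_c0_g1_i1, the sulfonate dioxygenase, had 1.52 in A, 1.51 in B and 2.96 in C. Library C was the high one in both.

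Entries named 2-nitropropane dioxygenase, an older name for flavin enzymes that oxidise nitroalkanes, gave 17 transcripts, most of them the 6 and 7 isoforms of 2 genes. The gene TRINITY_DN27655_c0_g1, with 6 isoforms matched to PUNSTDRAFT_144248, was highest in library B. Its TRINITY_DN27655_c0_g1_i2 had 8.14 RPKM in A, 14.0 in B and 6.94 in C, TRINITY_DN27655_c0_g1_i4 had 6.12, 10.01 and 5.58, and TRINITY_DN27655_c0_g1_i5 had 5.55, 8.46 and 4.52. TRINITY_DN27655_c0_g1_i6 differed less, with a 1.15-fold range around 7.05 ± 0.499 (SD, n = 3). The 8 transcripts matched to T. versicolor had 523 to 1396 reads each and summed to 23.1 RPKM ± 3.94 (SD, n = 3).

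The remaining dioxygenases came from 2 genes. 1,2-dihydroxy-3-keto-5-methylthiopentene dioxygenase, of the methionine salvage cycle, summed to 24.9 RPKM ± 3.31 (SD, n = 3), with 17.8 ± 2.27 in TRINITY_DN29918_c1_g2_i2. The transcripts named Glyoxalase/Bleomycin resistance protein/Dihydroxybiphenyl dioxygenase carry the name of a fold that includes extradiol ring-opening enzymes as well as unrelated ones. TRINITY_DN22955_c1_g2_i2 had 8.56 ± 1.23 RPKM and TRINITY_DN22955_c1_g2_i1 had 7.99 ± 1.15 (SD, n = 3 each).

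Set beside all annotated transcripts, 41 of the 66 members, 62.1%, had a mean of at least 1 RPKM, against 37.9% of the 22605. The median level of members was 1.84 RPKM in A, 2.36 in B and 2.43 in C, against 0.589, 0.459 and 0.454 over all annotated transcripts. The species of the match differed as well, and its part in this gap was not tested. P. strigosozonata was the match of 46 members (69.7%), against 42.2% of annotated transcripts. Within P. strigosozonata matches, 32 of 46 members (69.6%) reached 1 RPKM, against 60% of 9543, and the median was 6.68 RPKM ± 0.598 for members and 1.58 ± 0.0591 for all (SD, n = 3). Among T. versicolor matches, 8 of 18 members (44.4%) reached it, against 18.8% of 11569, and those 8 were all 2-nitropropane dioxygenase transcripts from 2 genes. Isoforms of a gene share sequence and are not independent. With isoforms summed, 21 of 42 genes reached 1 RPKM, against 37% of 16340 annotated genes.

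**Figure D3:**
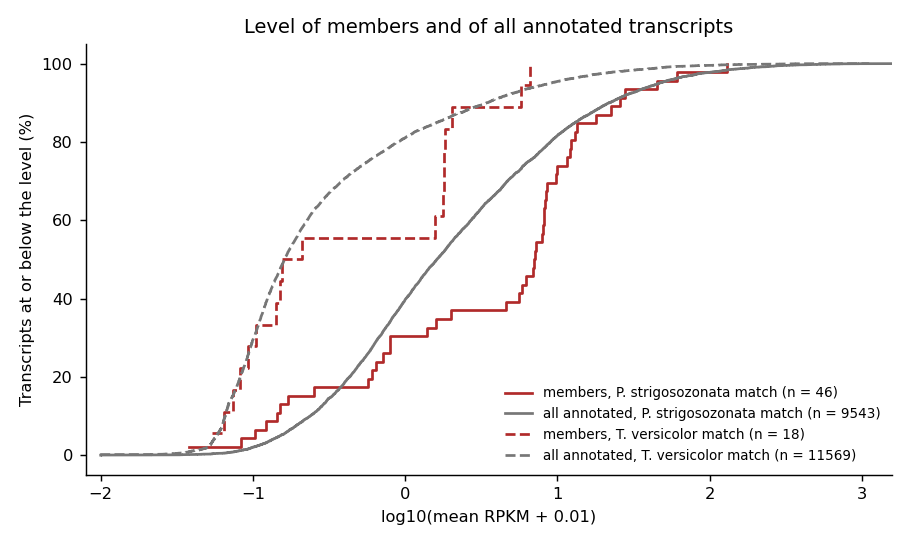
Cumulative share of transcripts at or below a level, on the log10(mean RPKM + 0.01) scale. Red lines are members and grey lines all annotated transcripts, drawn solid for P. strigosozonata and dashed for T. versicolor matches. The solid red line lies right of the solid grey line through the middle levels, with medians of 6.68 and 1.58 RPKM, and the lines meet at the top.

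The spread between libraries was measured as the CPM of the highest over that of the lowest library, for transcripts that had 10 or more reads in each of A, B and C. Of the 66 members, 47 could be measured, and 3 of these (6.38%) differed over 2-fold, against 17.5% of 12190 annotated transcripts. Within P. strigosozonata matches the share was 3 of 38 members (7.89%), against 16% of 8072. The median fold was 1.41 for members and 1.48 for annotated transcripts. These comparisons were not matched for level, although members had the higher median RPKM. Several of the 47 are isoforms of the same gene and are not independent. The 3 members were the taurine dioxygenase TRINITY_DN25663_c0_g1_i1 at 2.06-fold, the 2-nitropropane dioxygenase TRINITY_DN27655_c0_g1_i2 at 2.02-fold and TRINITY_DN17330_c0_g2_i1 at 2.62-fold. The last, also a 2-nitropropane dioxygenase, had 43, 10 and 15 reads in A, B and C and falls outside the naming rule. None of these 3 calls held under every omission of a library, and at folds of 2.02 to 2.62 none could have. Each fold is the product of the steps below and above the middle library, and these cannot both pass 2-fold. The omissions therefore do not test the calls. Only TRINITY_DN27655_c0_g1_i2 was past 2-fold without library A, only TRINITY_DN25663_c0_g1_i1 without B, and only TRINITY_DN17330_c0_g2_i1 without C.

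Which library was high or low varied from member to member. Of the 47, 11 were highest in library A, 22 in B and 14 in C, or 23.4%, 46.8% and 29.8%, against 27.7%, 44.9% and 27.3% of annotated transcripts. Lowest in A were 17 of 47 (36.2%), against 32.9% of annotated transcripts. Of the aromatic compound dioxygenases among them, all were lowest in A except TRINITY_DN28708_c0_g2_i1, which was lowest in C.

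**Figure D4:**
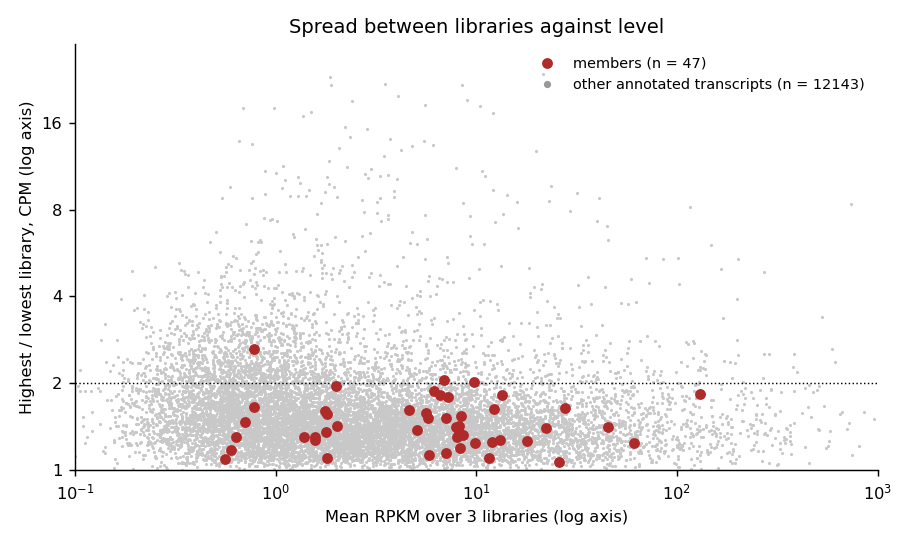
CPM of the highest over the lowest library against mean RPKM, both on log axes. Red points are 47 members and grey points 12143 other annotated transcripts, of which 18 lie outside the axes. The dotted line marks 2-fold, and 3 members lie above it.

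Of the 66 members, 21 had fewer than 100 reads over the 3 libraries, against 11150 of 22605 annotated transcripts. Under 500 bp were 15 of the 66 members, against 9930 of the 22605, so neither trait is particular to members. The 21 were 203 to 930 bp long, included all 15 members under 500 bp, and held 410 reads in total, so they add almost nothing to the sums. Of these, 10 matched T. versicolor, 10 P. strigosozonata and 1 M. roreri. They had 259 reads in A, 76 in B and 75 in C, and library A held 50.4% of their depth-scaled reads. Zero reads in library B or C were seen for 13 of them. Neither value was calculated for other annotated transcripts of so few reads. Of all 11569 T. versicolor matches, 8516 had fewer than 100 reads. The median of those 11569 was also highest in A, at 0.303 RPKM, against 0 in B and 0.0837 in C. At this depth a count of 0 does not show absence, since 3 counts correspond to 0.0268 CPM in A, 0.0440 in B and 0.0467 in C. Of the 50 members with 20 or more reads, 0 had a share above 90% in a single library after scaling for depth, against 3.14% of 15147 annotated transcripts.

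Other steps around these reactions were followed through 5 word lists, with members left out. The list for maleylacetate and muconolactone steps, which come after ring opening, held 8 transcripts of 208 to 437 bp, all with fewer than 100 reads, at a summed 2.07 RPKM ± 0.310 (SD, n = 3). Of this sum, 1.19 ± 0.637 RPKM came from TRINITY_DN18054_c0_g1_i1, whose match name joins dienelactone hydrolase with a glucanase, and 0.888 ± 0.383 from the other 7 (SD, n = 3 each). The list for aromatic amino acid entry held 18 transcripts at 9.70 ± 1.29 (SD, n = 3), led by phenylalanine ammonia-lyase TRINITY_DN25988_c0_g2_i1, which makes cinnamate from phenylalanine, with 3.15 RPKM in A, 2.33 in B and 3.82 in C. The list for phenolic acid and coumarate steps held 7 transcripts, all named feruloyl esterase-like protein, which cut ferulate from cell wall polysaccharides, at 5.49 ± 2.92 (SD, n = 3). Its highest, TRINITY_DN23863_c0_g1_i5, had 0.421 RPKM in A, 0.796 in B and 1.85 in C, a 4.39-fold range with C high. The lists for flavodoxin-like proteins and for FAD-dependent monooxygenases picked 0 transcripts, which does not show absence, since entries can carry other names.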

How the data were processed

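The authors' deposited table gave raw read counts for each assembled transcript in 3 unnamed columns, with transcript length as another column, and the authors' deposited annotation gave the best-matching entry. The submitters' processing notes name SAMtools 0.1.19, Bowtie2 2.2.6 and cutadapt 1.2.1. Not given in the sources used here are the assembler, the search thresholds, the rule for reads shared between isoforms and whether strand was used. Repeated annotation lines were dropped (29875 lines, 22605 transcripts). CPM is counts per 1000000 of the library total and RPKM divides CPM by length in kilobases. Means ± SD are over 3 libraries that the labels call separate biological replicates. Only counting error is covered by the intervals and by the floor, which is 3 counts. Members and word lists were chosen with earlier results of these data known, and roles were adjusted after product names were read. Named transcripts were the 3 highest per role with at least 300 bp and 100 reads, the 5 with the largest fold between libraries, and the highest of each word list. Calculations used Python 3.11.15 and scipy 1.17.1, with scaling alternatives from edgeR 4.0.16 and DESeq2 1.42.0, and were tested on simulated data. Alternatives covered scaling, length, low counts, isoforms, match species and leaving out each library.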

Additional observations from a re-analysis of the deposited data

How the results depend on the processing

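The members' summed level of 559 RPKM became 1789 with counts outside the 2 most abundant transcripts as the total and 930 CPM with reads not divided by length, and ranged from 542 to 592 with 1 library left out. The median of 2.21 RPKM became 7.06 and 2.92 under those settings, 5.17 with at least 10 reads in total, 6.10 with at least 500 bp, 1.25 summed by assembler gene and 6.68 with P. strigosozonata matches only. The count at 1 RPKM or more was 21 instead of 41 by assembler gene, where 42 genes stand for 66 transcripts. The count past 2-fold was 1 instead of 3 with 1 library left out, a different member each time. With a largest fold of 2.62, no call could hold under every omission, so this drop does not test the calls. The mean log2 ratio of quinone reductases to aromatic compound dioxygenases was -0.35, and 1.75 without the most abundant aromatic compound dioxygenase transcript. It was -0.63 without the NADH-quinone oxidoreductase match, -1.36 without length and -0.57 to -0.17 with 1 library left out. Summed levels by role moved by more than their SD in 19 of 98 recalculations. Most of these used counts outside the 2 most abundant transcripts as the total, or reads not divided by length. Both settings change the scale of every value, so those moves do not measure stability. The order of roles changed when reads were not divided by length. The rest of the listed alternatives did not reverse the direction of the ratio. No paired analysis was possible because there is only 1 group. Product names, fragmentary transcripts and the unknown assignment of reads shared by isoforms limit every level, and depth limits the 21 members under 100 reads.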

Other observations

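The share held by each isoform, among the reads of its gene's isoforms with a match, was followed over the 3 libraries. Isoforms without a match were left out of these shares. Of 35 isoforms in 11 member genes, 12 (34.3%) varied by 5 percentage points or more between libraries, against 37.9% of 7849 isoforms of annotated genes with several isoforms and at least 100 reads in every library. The median range was 3.06 points for members and 3.89 for annotated isoforms. The 3 isoforms of the taurine catabolism dioxygenase gene held 48.0%, 30.7% and 21.3% of its reads in library A, 48.5%, 30.2% and 21.3% in B, and 46.6%, 32.2% and 21.2% in C. The homogentisate dioxygenase isoform TRINITY_DN29108_c0_g1_i2 held 37.3% in A, 35.9% in B and 39.9% in C. The widest range, 12.4 points, was in an aromatic compound dioxygenase, TRINITY_DN28708_c0_g2_i1, with 59.6% in A, 54.7% in B and 47.2% in C. An isoform of this gene without a match, TRINITY_DN28708_c0_g2_i2, had 122, 61 and 74 reads in A, B and C. Counting those reads would lower these shares. The leading isoform was not the same in every library in 3 of the 11 member genes (27.3%), against 37.6% of 2566 annotated genes. They were TRINITY_DN28708_c0_g2 and, among 2-nitropropane dioxygenases and prenyl transferases, TRINITY_DN27655_c0_g1 and TRINITY_DN29436_c0_g1. The main isoform of the second aromatic compound dioxygenase gene, TRINITY_DN27645_c1_g1_i2, held 76.7% in A, 80.1% in B and 82.5% in C.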
